A study of Danio rerio with 9 samples.

Results

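Crystallins are the abundant soluble proteins of the eye lens, and their genes were followed across 9 RNA sequencing libraries of zebrafish embryos. Genes were taken as members when their symbol in the deposited table began with cryaa, cryba, crybb, crygm, crygn or crygs, which gave 41 of 21109 genes or transcripts. They comprised 1 alpha crystallin gene (cryaa), 11 beta crystallin genes (7 of type A and 4 of type B) and 29 gamma crystallin genes. Of the gamma genes, 27 are of type M, among them 21 numbered crygm2d genes, and 2 are of type N. No row began with crygs, and the alpha B crystallin genes cryaba and cryabb were not analysed here. The libraries formed 3 groups of 3. Control MO embryos received a control morpholino, an antisense oligonucleotide, and sf3b1 MO embryos received a morpholino against the splicing factor gene sf3b1. The third group, sf3b1 MO + As2S2, received that morpholino together with the arsenic sulfide As2S2, and red blood cell maturation under As2S2 is the stated subject of the series. All embryos thus carried a morpholino. The series text speaks of a knockout and the count columns are headed wt and ko, while the sample titles name morpholinos. Strain, embryo age, dose and vehicle are not stated, nor is any pooling of embryos.

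The vertebrate lens is built of fibre cells that fill themselves with crystallins and then lose their nuclei and organelles. Alpha crystallins belong to the small heat shock proteins and act as chaperones, while beta and gamma crystallins share a fold of paired Greek key domains and serve as densely packed structural proteins that raise the refractive index. Beta crystallins assemble into oligomers and gamma crystallins are monomers. The gamma M crystallins are rich in methionine and are characteristic of the hard lenses of fish and other aquatic vertebrates.

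Total counts ranged from 21942696 to 28702980 in the 6 control MO and sf3b1 MO libraries, while for the As2S2 libraries depth is unknown, because only FPKM (fragments scaled to transcript length and library size) were used for them. By counts, given as CPM (counts relative to each library's effective size), sf3b1 stood at 534, 546 and 541 in control MO and at 888, 889 and 853 in libraries labelled sf3b1 MO. By FPKM it stood at 173, 174 and 166 in control MO, 109, 106 and 108 in libraries labelled sf3b1 MO and 169.7, 171 and 167 with As2S2. The targeted RNA was therefore higher by counts (log2 fold change 0.70) and lower by FPKM (-0.66 on log2(FPKM + 1)), and does not settle the labels. For the crystallin genes FPKM followed the counts. In 39 of 40 members with both measures, log2 FPKM per count varied between the 6 libraries with an SD of at most 0.055, and in crybb1l2 the SD was 0.12. The libraries are labelled as embryonic trunk tissue, and 12 genes of skeletal muscle summed to 18533 ± 248 FPKM in control MO (SD, n = 3). The 39 crystallin genes with values in all 9 libraries summed there to 17385 ± 230 FPKM, or 3.45% ± 0.0373 of all FPKM, so lens RNA was abundant in libraries named for the trunk. Here and below, all FPKM means the sum over the 19760 genes or transcripts with values in all 9 libraries.

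In control MO the members fell into 2 ranges of level with none between. 32 genes had means from 203 FPKM (crygm2d12) to 1571 FPKM (crybb1), and 8 genes had means from 1.67 FPKM (crygmxl1) to 9.70 FPKM (cryba1l2). The boundary of 100 FPKM used below to separate these ranges was set after their values were seen. FPKM are per length, so these levels can be compared between genes. For the crygm2d genes this is less sure, because sharing of reads between near-identical copies was not tested.

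The only alpha member was in the low range. Gene cryaa (ENSDARG00000053502) stood at 8.65, 8.12 and 8.89 FPKM in control MO, at 6.14, 5.67 and 4.89 in libraries labelled sf3b1 MO and at 2.96, 3.39 and 3.02 with As2S2. The 3 groups did not overlap, and every library was far under the 32 abundant beta and gamma genes. Of the beta genes 8 were abundant, from 481 FPKM in cryba2b to crybb1, the most abundant crystallin of all 3 groups. Per library, crybb1 stood at 1565, 1562 and 1588 FPKM in control MO, 1143, 1129 and 1199.7 in libraries labelled sf3b1 MO and 627, 605 and 622 with As2S2. The next beta gene, cryba1b, stood at 845, 844 and 859.8 FPKM in control MO, at 533, 578 and 535 under the sf3b1 MO label and at 290.1, 285 and 282 with As2S2. In both genes every library of a group lay below every library of the group before it. The remaining 3 beta genes, cryba1l2, cryba1a and crybb1l3, had control means of 9.703, 4.66 and 3.47 FPKM.

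Gamma genes held 24 of the 32 abundant members: the 21 numbered crygm2d genes, crygmx, crygmxl2 and crygn2. The highest was crygm2d19, at 989.7, 957 and 992 FPKM in control MO, 793, 829 and 814 in libraries labelled sf3b1 MO and 352, 363 and 373 with As2S2. It was followed by crygm2d8, at 926, 888 and 878 FPKM in control MO, at 634, 662 and 640.1 under the sf3b1 MO label and at 306, 324 and 329.9 with As2S2. Again no groups overlapped. The type N gene crygn2 stood at 709.5, 696 and 698 FPKM in control MO, at 498, 507 and 473 under the sf3b1 MO label and at 251, 257 and 267 with As2S2. Its paralog crygn1 stood at 2.23, 1.82 and 1.995 FPKM in control MO, at 3.96, 3.27 and 2.71 under the sf3b1 MO label and at 2.49, 3.48 and 2.800 with As2S2. The type N genes thus stood at opposite ends of the range, with crygn1 low in every library. Also in the low range were crygm5, crygm2f and crygmxl1. No As2S2 value was given for crygmxl1, and crygm4 had values only with As2S2, at 1.75, 0.653 and 1.71 FPKM.

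**Figure D1:**
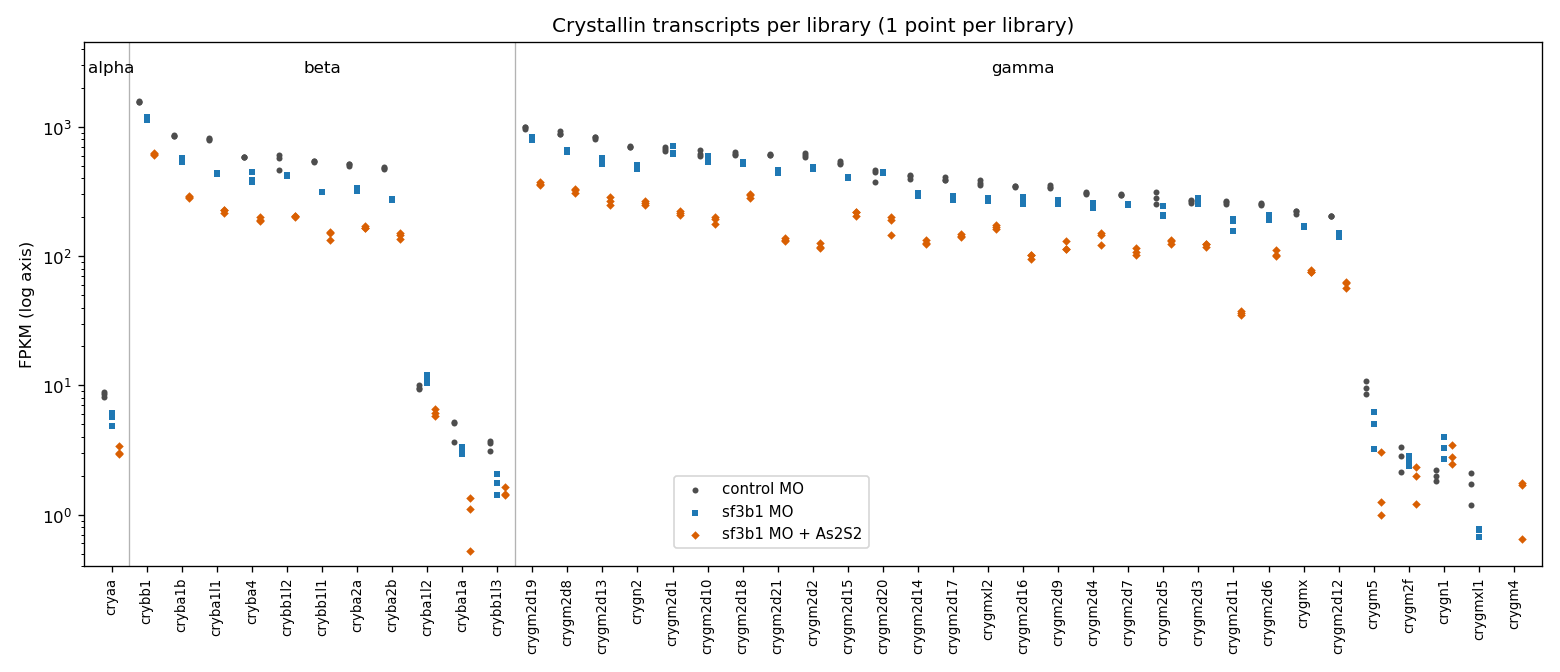
FPKM of the 41 crystallin genes in each library on a log axis, with genes ordered by class and by control MO level; black circles are control MO, blue squares libraries labelled sf3b1 MO and orange diamonds sf3b1 MO + As2S2. The abundant members lie between 203 and 1571 FPKM in control MO and the others at 9.70 FPKM or less.

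Counts of sf3b1 MO and control MO embryos were compared first, with edgeR. Most crystallin transcripts were lower in libraries labelled sf3b1 MO. Of 40 members tested 33 fell and 2 rose, where 25.9% of 20723 genes tested were called lower (adjusted p under 0.05) and 25.2% were called higher. The median log2 fold change was -0.42 over the members and -0.02 over all genes. Every CPM under the sf3b1 MO label was below every control MO value in 33 of 40 members, where 30.8% of all genes tested had this pattern. In 2 further members, cryba1l2 and crygn1, every CPM was above control MO, and in 5 the groups overlapped. Because these are bulk samples, fewer lens cells and less crystallin RNA per cell cannot be told apart.

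Gene cryaa, the chaperone class, fell from 13.4, 12.4 and 13.5 to 9.58, 8.902 and 7.68 CPM. The log2 fold change was -0.59 (SE 0.12, edgeR adjusted p = 0.0012). This was close to the median of the beta genes (-0.60) and lower than that of the gamma genes (-0.33).

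Among beta genes 10 of 11 fell, with a median log2 fold change of -0.60, where 25.9% of all genes tested were called lower. The largest falls of abundant members were in cryba1l1 and cryba2b, both of type A. Counts of cryba1l1 were 769.6, 783 and 789.5 CPM in control MO and 426, 432 and 438 in libraries labelled sf3b1 MO (log2 fold change -0.85, SE 0.03, edgeR adjusted p = 1.9e-11), so 55.4% of the control level was left. Those of cryba2b were 435, 421 and 432 CPM in control MO, against 244, 245 and 249.6 under the sf3b1 MO label (-0.80, SE 0.03). All libraries labelled sf3b1 MO were far below all control MO libraries in both genes. The smallest falls of abundant beta genes were in crybb1, from 1616 ± 11.2 to 1215 ± 43.9 CPM (SD, n = 3; -0.41), and crybb1l2, from 772 ± 31.3 to 572 ± 6.28 (-0.43). The other abundant beta genes stood at -0.75 (crybb1l1), -0.61 (cryba2a), -0.60 (cryba1b) and -0.51 (cryba4). All 8 abundant beta genes fell, from -0.41 to -0.85, with no gene near 0. The low gene cryba1l2 was the only beta gene to rise, from 18.99, 17.6 and 17.6 to 19.6, 22.9 and 21.4 CPM (0.24, SE 0.09, edgeR adjusted p = 0.0497). This call was lost in DESeq2, with the replicate number as a block, and without 5 of the 6 libraries in turn, with adjusted p from 0.056 to 0.16.

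Where 25.9% of all genes tested were called lower, 21 of 26 gamma M genes fell and 5 were not called. Their median log2 fold change was -0.33, beside -0.60 in the beta genes, a difference that was not tested. Within the 21 numbered crygm2d genes 17 fell, and the values ran from -0.54 in crygm2d13 to 0.08 in crygm2d20. In crygm2d13 the counts were 579, 581 and 556 CPM in control MO and 408, 409 and 367 in libraries labelled sf3b1 MO. In crygm2d1, by contrast, they were 619.6, 578 and 587 CPM in control MO, against 564, 644 and 559.7 (-0.01, SE 0.06, edgeR adjusted p = 0.87). The first gene had groups apart and the second had groups that overlapped at nearly the same mean. Also not called were crygm2d20, at 365 ± 36.7 and 386 ± 5.56 CPM, and crygm2d3, at 339 ± 13.3 and 344 ± 22.2 (SD, n = 3). In crygm2d5 the groups were apart, at 250.4 ± 28.6 and 198 ± 20.1 CPM, without a call (-0.34, adjusted p = 0.079 in edgeR). It was called lower by DESeq2, by limma on log2(FPKM + 1), and without control MO replicate 2 or sf3b1 MO replicate 2. The call of crygm2d10 (-0.13, edgeR adjusted p = 0.047), whose groups overlapped, was lost with RLE scaling, in limma on log2(FPKM + 1), and without any of 4 libraries: control MO replicates 2 and 3 and sf3b1 MO replicates 1 and 3. Single members of the crygm2d series are uncertain, because sharing of reads between near-identical copies was not tested.

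Outside the crygm2d series, crygmx (-0.33) and crygmxl2 (-0.42) fell, and crygn2 fell from 745 ± 12.2 to 534 ± 17.7 CPM (-0.48). Among low members with a mean of at least 4 CPM the largest fall was in crygm5, from 12.1, 10.04 and 10.96 to 6.96, 5.95 and 3.86 CPM (-0.98, SE 0.19). It left 50.7% of the control level, with no overlap of groups. The second gene to rise was crygn1, from 2.05, 1.65 and 1.802 to 3.71, 3.04 and 2.55 CPM (0.75, SE 0.24, edgeR adjusted p = 0.017). The only member at least 2-fold lower was crygmxl1, from 1.66, 1.18 and 2.03 to 0.779, 0.749 and 0.656 CPM (-1.16), while 7.77% of all genes were. The calls of crygmxl1 and cryba1a were lost without control MO replicate 3. That of cryba1a was also lost without control MO replicate 1 and in limma on log2(FPKM + 1). In that limma fit crygmxl1 was not tested, because it lacks As2S2 values. Gene crygn1 was not called without control MO replicate 2 (adjusted p = 0.059) or without sf3b1 MO replicate 1 (adjusted p = 0.076).

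**Figure D2:**
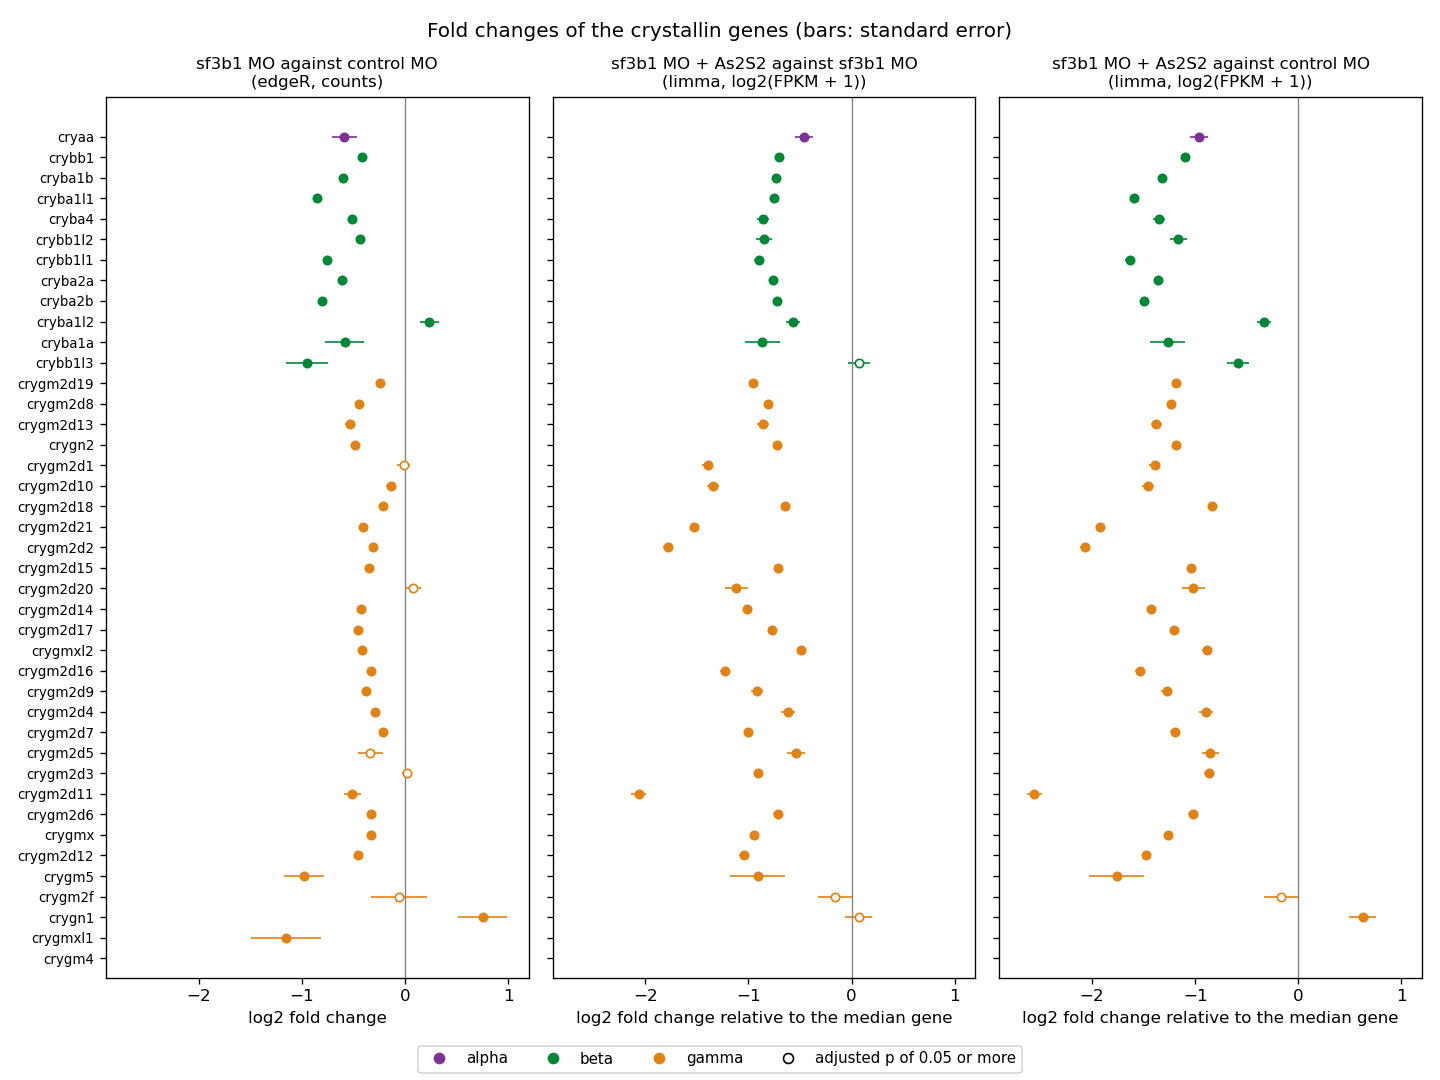
Log2 fold change and standard error of each crystallin gene in the 3 comparisons, by class; filled points have an adjusted p under 0.05 and open points do not, and crygm4 has no value. Beta genes (green) spread from -0.95 to 0.24 in the left panel, and crygm2d11 lies farthest left in the other panels.

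Embryos given As2S2 were next set against those with the sf3b1 morpholino alone, by FPKM, with limma on log2(FPKM + 1). This comparison shares its sf3b1 MO libraries with the first. Every abundant crystallin gene fell, to between 20.3% and 61.8% of the FPKM without As2S2. Of 39 members tested 36 fell and 3 were not called, where 44.5% of 18013 genes tested were called lower and 17.3% higher. After centring every library on its median, 36 members again fell, against 27.4% of all genes lower and 30.2% higher. No member was called higher by limma, and none was higher at an unadjusted p under 0.05. The median gene of all tested stood at -0.20, and log2 fold changes of single genes are given relative to it on the log2(FPKM + 1) scale. On this scale the median over the members was -0.85, and 10 members were called and at least 2-fold lower, where 4.14% of all genes tested were. Every FPKM with As2S2 was below every one without it in 37 of 39 members, and in 46.8% of all genes tested.

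The abundant beta genes moved as a narrow band. All 8 fell, between -0.70 in crybb1 and -0.90 in crybb1l1. Of all genes tested 44.5% were called lower, or 27.4% after centring, when all 8 again fell. For crybb1l1 the FPKM were 312, 313 and 315 without As2S2 and 133, 153 and 151 with it (SE 0.05, limma adjusted p = 1e-07). For crybb1, at the values given above, 53.4% of the level was left (SE 0.03, limma adjusted p = 1.7e-08). The type A genes cryba1b (-0.74), cryba1l1 (-0.76) and cryba2b (-0.72) lay in the same band, and so did crybb1l2 (-0.85). In cryba1l1 FPKM went from 434, 437 and 442 to 217, 229 and 229, and in cryba2b from 270.0, 273 and 274 to 135, 145 and 150.4. In every one of these genes the groups were apart by far more than their spread. The low gene cryba1l2, which had stood above control MO, fell as well, from 11.2 ± 0.851 to 6.15 ± 0.375 FPKM (SD, n = 3; -0.57). The low type B gene crybb1l3 was not called, at 2.06, 1.76 and 1.42 FPKM without As2S2 and 1.64, 1.41 and 1.45 with it.

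Of 25 gamma M genes tested 24 fell, also after centring, where 44.5% of all genes tested were called lower (27.4% after centring). The 21 numbered crygm2d genes ranged from -0.54 in crygm2d5 to -2.06 in crygm2d11. FPKM of crygm2d11 were 157, 186 and 195 without As2S2 and 36.5, 37.8 and 34.8 with it (SE 0.07, limma adjusted p = 1.7e-08). Its level with As2S2 was 20.3% of that without. Next came crygm2d2, from 469, 481 and 487 to 116, 117 and 127 FPKM (-1.78, SE 0.04), and crygm2d21, from 439, 464 and 445 to 132, 138 and 134 (-1.53, SE 0.03). In these 3 genes the As2S2 libraries lay far below the others, by much more than the spread within a group. On the log2(FPKM + 1) scale all 10 members that were at least 2-fold lower relative to the median gene belong to the crygm2d series, and 8 members were after centring each library. The pseudocount of 1 understates the change of low members. By FPKM alone, 31.9% of the level was left in cryba1a and 36.5% in crygm5. On that scale cryba1a stood at -1.07 before the shift to the median gene and -0.87 after it. For crygm5 these values were -1.11 and -0.91. The abundant gamma gene with the smallest fall was crygmxl2, from 272 ± 8.71 to 168 ± 5.56 FPKM (SD, n = 3; -0.49). Its relative crygmx fell from 171 ± 1.798 to 76.2 ± 1.77 (-0.95), and crygn2 from 493 ± 17.8 to 258 ± 8.14 (-0.73). The low gene crygm2f, at 2.62, 2.84 and 2.37 FPKM without As2S2 and 2.01, 2.32 and 1.22 with it, was not called, nor was crygn1.

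For cryaa, the FPKM given above fell from a mean of 5.57 ± 0.634 to 3.13 ± 0.233 (-0.46, SE 0.09, limma adjusted p = 0.00014), so 56.2% was left. The alpha gene is a small heat shock protein by sequence family, and 9 other genes of that family were followed beside it. Of 6 with values in all groups, 3 rose and 2 fell, where 17.3% of all genes tested were called higher and 44.5% lower. The stress-induced chaperone gene hspb1 went from 10.2, 9.38 and 10.7 to 113, 117 and 112 FPKM (3.57, SE 0.08), and hspb9 from 11.2, 9.24 and 8.88 to 23.7, 24.4 and 23.6 (1.42). Both moved opposite to cryaa, with no overlap of groups. The other member that rose was hspb8 (0.61), while hspb15 (-1.02) and hspb6 (-0.92), a small heat shock protein of muscle, fell.

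As2S2 libraries were last set against control MO, and here again most crystallin genes fell. This comparison uses the same control MO libraries as the first comparison and the same As2S2 libraries as the second. Of 39 members tested 37 fell and 1 rose, where 48.5% of 18013 genes tested were called lower and 19.5% higher (28.0% and 34.8% after centring). The median gene stood at -0.25, and relative to it the members had a median of -1.24. At least 2-fold lower were 29 members, or 26 after centring, against 6.42% of all genes tested. Every FPKM with As2S2 was below every control MO value in 37 of 39 members, and in 51.1% of all genes tested. In crygn1 every value was above control MO, and in crygm2f the groups overlapped.

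Relative to control MO, 13.96% of the FPKM was left in crygm2d11 (-2.56, SE 0.07, limma adjusted p = 2.1e-09), 19.9% in crygm2d2 (-2.07) and 22.1% in crygm2d21 (-1.92). Among abundant beta genes the range was 26.97% in crybb1l1 (-1.64) to 39.3% in crybb1 (-1.10). Of cryaa 36.6% was left (-0.96, SE 0.09). In 31 of the 39 members with all values, every library labelled sf3b1 MO lay below every control MO library and above every As2S2 library, a pattern that 12.7% of all genes tested had. The 8 others were cryba1l2, crybb1l3, crygm2d1, crygm2d3, crygm2d10, crygm2d20, crygm2f and crygn1. Only crygn1 was called higher with As2S2 than in control MO (0.62, SE 0.13, limma adjusted p = 0.03), and this call was lost without control MO replicate 2 or 3 or without As2S2 replicate 2 or 3 (adjusted p from 0.052 to 0.10).

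Summed over genes with values in all 9 libraries, beta crystallins made up 1.18%, 1.15% and 1.18% of all FPKM of such genes in the control MO libraries. They made up 0.759%, 0.775% and 0.781% in libraries labelled sf3b1 MO, and 0.380%, 0.378% and 0.385% with As2S2. Gamma crystallins made up 2.28%, 2.25% and 2.29% in control MO, 1.77%, 1.84% and 1.78% in libraries labelled sf3b1 MO, and 0.748%, 0.764% and 0.785% with As2S2. Both classes stepped down without overlap, but not in the same proportion at each step. The summed FPKM of gamma over beta crystallins was 1.94, 1.95 and 1.93 in control MO. In libraries labelled sf3b1 MO this ratio was 2.33, 2.38 and 2.28, and with As2S2 it was 1.97, 2.02 and 2.04. Every library labelled sf3b1 MO thus had a higher ratio than every other library, and the As2S2 libraries stood slightly above control MO. As a share of the control sum, 66.0% of beta and 79.3% of gamma FPKM was present in libraries labelled sf3b1 MO, and 33.7% and 34.9% with As2S2.

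**Figure D3:**
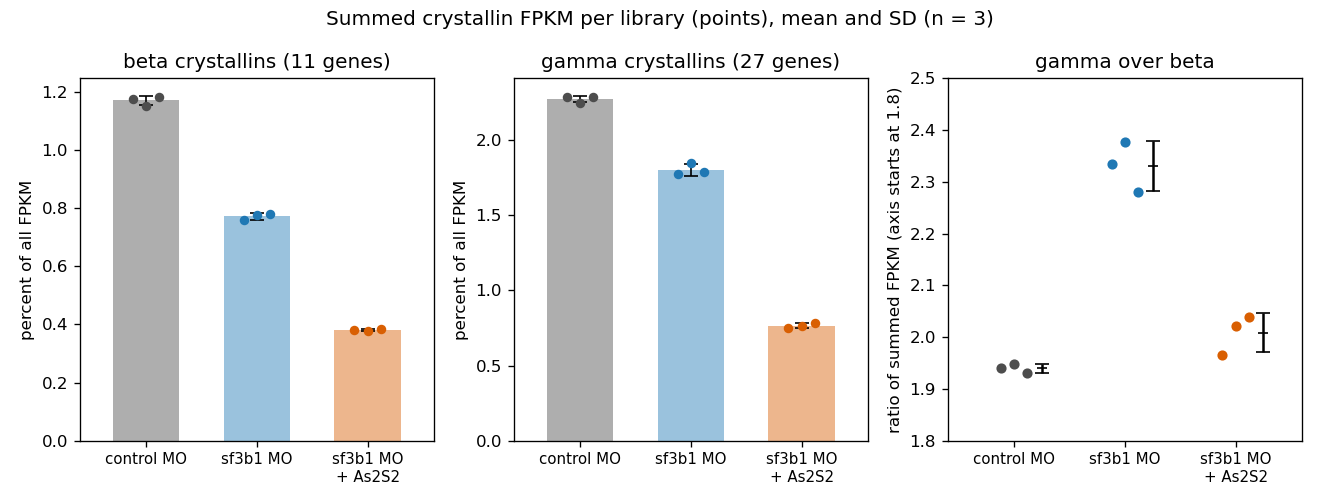
Summed FPKM of 11 beta and 27 gamma crystallin genes as percent of all FPKM, and the ratio of the gamma to the beta sum, per library (points) with the mean and SD of 3 libraries. All FPKM covers only genes with values in all 9 libraries. The ratio lies between 2.28 and 2.38 in libraries labelled sf3b1 MO and between 1.93 and 2.04 in the others.

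All 41 members were found in the RefSeq annotation of assembly GRCz12tu, which was used only for which genes neighbour or overlap each other. The 21 numbered crygm2d genes, crygmxl1, crygm2f and crygm5 stand there in a single array of 31 crystallin genes with no other protein-coding gene between them. The abundance of these neighbours differed sharply. From crygm2d12 to crygm2d19 the numbered genes spanned 203 to 979.6 FPKM in control MO, while crygm2f and crygm5, at the end of the same stretch, stood at 2.77 and 9.63 FPKM. Along the array, the larger falls with As2S2 included 4 adjacent genes: crygm2d21, crygm2d10 (-1.34), crygm2d2 and crygm2d1 (-1.39). The largest, crygm2d11, stands apart from them between crygm2d13 (-0.86) and crygm2d15 (-0.71). This grouping was noticed after the values were seen, and no test was made of it.

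By the FPKM given, the make-up of the crygm2d pool also differed with As2S2, though sharing of reads between near-identical copies was not tested. As a share of the summed FPKM of the 21 numbered genes, crygm2d2 made up 5.96% ± 0.171 in control MO, 5.88% ± 0.145 in libraries labelled sf3b1 MO and 3.45% ± 0.101 with As2S2 (SD, n = 3). Gene crygm2d18 moved the other way, at 6.12% ± 0.107, 6.48% ± 0.127 and 8.37% ± 0.0851, and went from rank 6 to rank 3. The share of crygm2d11 was 2.57% ± 0.0712 in control MO and 1.04% ± 0.0623 with As2S2. The leading gene was crygm2d19 in all groups, at 9.64% ± 0.0792, 9.96% ± 0.111 and 10.4% ± 0.0206 of the pool.

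**Figure D4:**
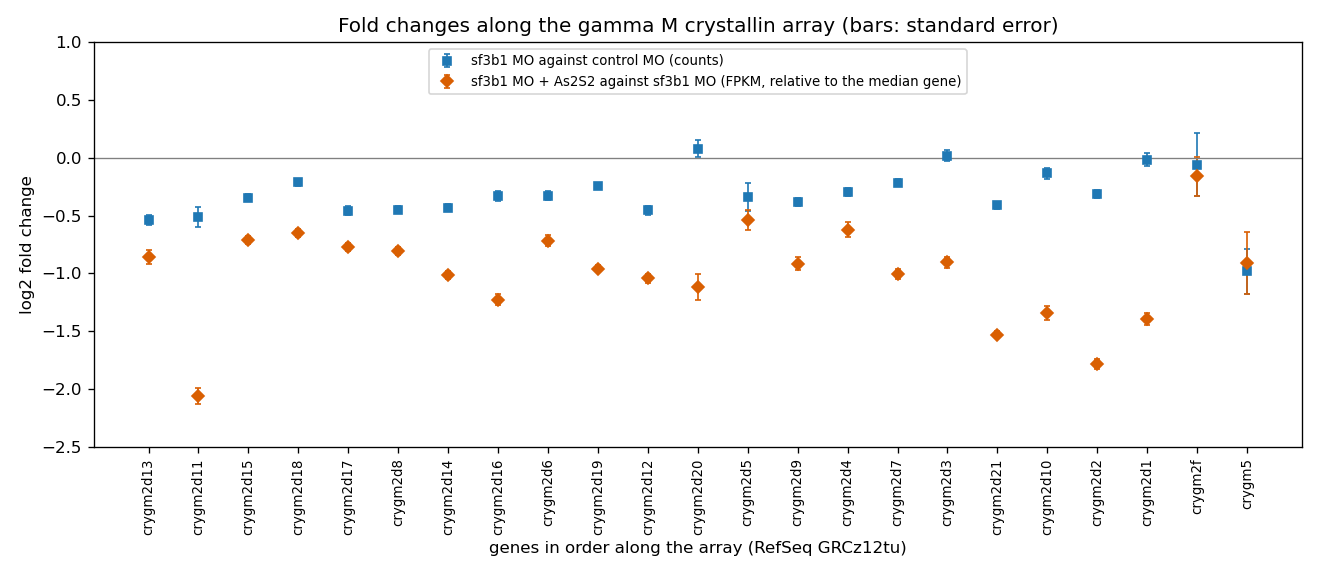
Log2 fold change and standard error of 23 gamma M crystallin genes in their order along the array, for libraries labelled sf3b1 MO against control MO (blue squares) and for As2S2 against sf3b1 MO (orange diamonds). The lowest diamonds are crygm2d11 near the left end and crygm2d2 near the right end.

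Beta genes of type A and type B stand next to each other in 4 neighbouring pairs. In the pair crybb1l1 and cryba1l1 both fell by similar amounts in libraries labelled sf3b1 MO (-0.75 and -0.85) and again with As2S2 (-0.90 and -0.76). The pair crybb1 and cryba4 stood at -0.41 and -0.51, then at -0.70 and -0.86. The pair cryba1l2 and crybb1l2 did not move alike in the first comparison (0.24 and -0.43) and differed in control MO level, at 9.703 against 548 FPKM. In the pair cryba1a and crybb1l3, both low, the genes overlap in that annotation. Their counts are uncertain, since it is not known whether counting used strand. The same holds for cryaa, crygn1 and cryba2a, which each overlap the gene that follows them there. Overlap with a preceding gene outside the crystallins was not checked. The pair stood at -0.58 and -0.95 in the first comparison, and at -0.87 and 0.07 with As2S2.

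Other genes of the lens were followed from lists of membrane and fibre genes, and of regulators. Of 17 fibre genes tested by counts 12 fell and 5 were not called (median -0.48), where 25.9% of all genes tested were called lower. With As2S2 against sf3b1 MO 44.5% of all genes were called lower and 17.3% higher, or 27.4% and 30.2% after centring. Of 15 fibre genes tested there 13 fell and 1 rose (median -0.58), or 10 and 1 after centring. The one that rose was birc7, of the inhibitor of apoptosis family, at 1.69 ± 0.336 FPKM without As2S2 and 2.84 ± 0.0820 with it (SD, n = 3; 0.72, SE 0.11). The lens water channel gene mipb fell in both comparisons, with 49.5, 49.6 and 46.5 FPKM in control MO, 23.3, 24.3 and 23.7 in libraries labelled sf3b1 MO and 5.29, 5.54 and 5.69 with As2S2 (-1.73 with As2S2, SE 0.05). Its paralog mipa stood at 28.7, 20.1 and 8.900 FPKM (-0.48, then -0.89), and bfsp2, a filament protein of fibre cells, at 56.7, 34.8 and 19.8 (-0.68, then -0.58). The fibre membrane genes lim2.1 and lim2.3, singled out after their values were seen, did not move alike. FPKM of lim2.1 were 12.8, 12.6 and 11.1 without and 1.19, 0.687 and 0.00 with As2S2 (-2.88), and those of lim2.3 were 27.2, 34.5 and 32.9 without and 28.5, 27.4 and 23.1 with it (-0.04). Gene lim2.3 is among the 13 that fell (-0.25 before the shift to the median gene, limma adjusted p = 0.048), although its groups overlapped. A further list, of other genes named with the crystallins, held 5 genes: crybg1a, cryl1, cryz, cryzl1 and lgsn. How much of their RNA came from the lens was not tested. By counts 4 of these fell and 1 was not called. Of 4 tested with As2S2 against sf3b1 MO 3 fell. The other, crybg1a, was not called (0.24), and was called higher after centring. Gene lgsn, a lens protein related to glutamine synthetase, fell from 17.9 ± 1.19 to 10.5 ± 0.624 and then to 4.94 ± 0.362 FPKM (-0.74 by counts, then -0.75).

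Lens regulators went in both directions. Of 19 tested, 9 rose and 3 fell by counts (median 0.15), where 25.2% of all genes tested were called higher and 25.9% lower. With As2S2 against sf3b1 MO 4 rose and 7 fell (17.3% and 44.5% of all genes), or 9 and 1 after centring (30.2% and 27.4%). The median of the 19 was 0.12 relative to the median gene. The eye field gene pax6a stood at 85.8 ± 0.822, 122.7 ± 2.66 and 135 ± 3.45 FPKM (SD, n = 3; 0.60 by counts, then 0.34). The progenitor gene sox2 stood at 65.8 ± 0.942, 71.7 ± 1.87 and 117 ± 3.63 FPKM (0.15, then 0.90). Both genes are also used in retina and brain, so their levels are not those of the lens alone. Among the regulators that fell with As2S2, meis1b stood at 105 ± 2.23, 106 ± 4.54 and 75.8 ± 1.57 FPKM (0.06 by counts, not called, then -0.27). Gene hsf4, a heat shock factor of lens fibres singled out after its values were seen, stood at 2.31, 2.05 and 2.03 FPKM in control MO, 1.89, 1.37 and 0.838 in libraries labelled sf3b1 MO and 0.551, 0.624 and 0.454 with As2S2. It was not called by counts (adjusted p = 0.056 in edgeR), but was called lower there by limma on log2(FPKM + 1) (adjusted p = 0.039). It fell with As2S2 (-0.39), and the pseudocount of 1 understates this change, as it does for other low genes of the lists.

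Markers of the retina also differed between the groups. Like the lens lists, these lists were chosen with earlier results known. Photoreceptor genes, 20 of which were measured, summed to 3481 ± 67.1 FPKM in control MO, 2986 ± 61.0 in libraries labelled sf3b1 MO and 271 ± 5.21 with As2S2 (SD, n = 3). With As2S2 19 of 20 fell against sf3b1 MO, or 18 after centring, where 44.5% of all genes tested were called lower (27.4% after centring). The median of the photoreceptor genes was -3.72 relative to the median gene, where the crystallins had -0.85. The cone opsin gene opn1sw1 was at -6.46 and opn1lw2 at -5.47. In the same list crx was at -0.09, and nrl was not called (0.25). By counts 3 of the 20 rose, 10 fell and 7 were not called, where 25.2% of all genes were called higher and 25.9% lower. Of these arr3a stood at -0.88 and crx at 0.65. Of 16 genes listed for other retinal cells 9 rose and 7 were not called by counts (median 0.30), where 25.2% of all genes were called higher. How much of the RNA of these 16 came from the retina was not tested. With As2S2 against sf3b1 MO 2 of the 16 rose and 8 fell (17.3% and 44.5% of all genes), or 7 and 7 after centring (30.2% and 27.4%). The median of the 16 was 0.00, with rpe65a of the pigment epithelium at -1.97 and gad1b at -0.66. Crystallin sums with As2S2 were 46.1% of those without it, against 9.07% for photoreceptors, 55.3% for lens fibre genes and 55.9% for trunk muscle. In libraries labelled sf3b1 MO they were 74.8% of control MO, against 85.8%, 69.0% and 41.0%. What part a different amount of eye tissue per library has in the crystallin values was not tested.

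**Figure D5:**
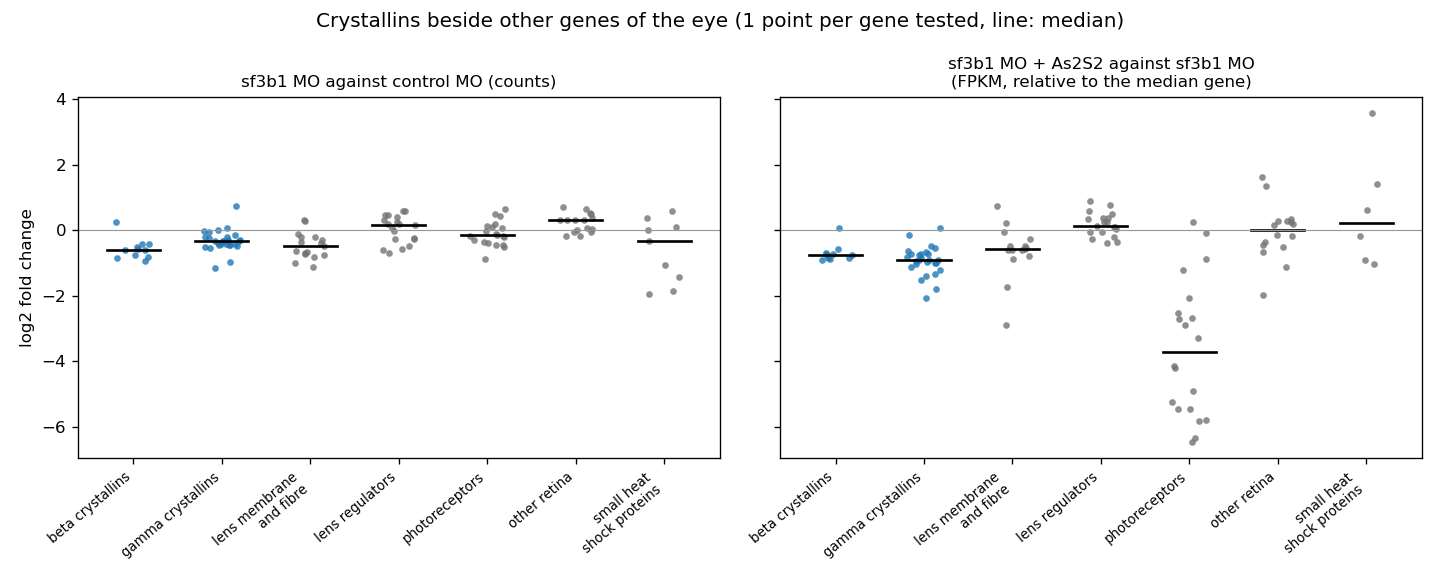
Log2 fold changes of the genes tested, with beta and gamma crystallins in blue and other gene lists in grey; lines are medians, for libraries labelled sf3b1 MO against control MO (left) and As2S2 against sf3b1 MO (right). Photoreceptor genes reach -6.46 on the right, while crystallins lie between -2.06 and 0.07.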

How the data were processed

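Sequencing libraries came from polyA-selected RNA, per the labels' protocols. The submitters' processing notes name GRCz11, DESeq2 and fastp 0.22.0, and no source used here names an aligner or a counting program. The authors deposited whole-number counts of 6 libraries (control MO, sf3b1 MO) and FPKM of all 9. Counts were given for 20723 genes or transcripts, As2S2 FPKM for 20146 and FPKM of all 9 libraries for 19760. Whether the As2S2 FPKM were computed together with the others was not tested, nor what part this has in the As2S2 comparisons. The deposited mean column, on the log2 scale, equals the mean of log2(FPKM + 1) in 40 of 40 members within 0.001. The authors' deposited p-values were not used. In the authors' deposited table the log2 fold change of sf3b1 MO against control MO had the sign of the value here in 40 of 40 members.

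Counts were tested with edgeR 4.0.16 (quasi-likelihood, robust, TMM; its default expression filter removed none of the 20723 genes with counts), with the SE taken as the log2 fold change over the square root of F. FPKM were tested with limma 3.58.1 (trend, pseudocount 1, 9 libraries in 1 fit) over 18013 genes that reached 1 FPKM in at least 3 libraries. In the As2S2 comparisons log2 fold changes are printed relative to the median gene (-0.20 from sf3b1 MO, -0.25 from control MO), and calls refer to unshifted values. Percentages of FPKM left are not shifted either. Genes lacking a value in a group were left out. The Benjamini-Hochberg adjustment covered every gene tested, at a threshold of 0.05. Both scripts were tested on simulated data. Separate clutches are not stated for the replicates, and p-values therefore measure only the spread between libraries, which may be technical. Members and lists were chosen with earlier results of these data known. Named members are the 2 most abundant per subclass and, per comparison, the 3 largest called rises and falls whose mean reached 4 CPM or FPKM. Others named beside them (such as crygm2d1, crygm2d13, crygm2d18 and crybb1l1) were chosen after their values were seen. List genes were named from the up to 2 with the smallest adjusted p per list and comparison, though not all of these are named. Other list genes, such as birc7, hspb8, hspb15 and nrl, were named outside this rule.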

Additional observations from a re-analysis of the deposited data

How the results depend on the processing

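Counts of crystallin genes called lower kept within 1.5 times under all alternatives: 30 to 34 for sf3b1 MO against control MO (33 in the report), 36 to 37 for As2S2 against sf3b1 MO (36) and 37 to 38 for As2S2 against control MO (37). The small counts called higher did not. In the first comparison 2 members rose in edgeR, 1 in DESeq2 1.42.0, 1 with the replicate number as a block, and 0 to 1 without each library in turn. For As2S2 against control MO the count was 1, and 0 to 1 without each library in turn. The cause was not tested. Of 525 values of the 15 named members under alternatives, 511 kept direction and side of the threshold, 13 lost their call (crygn1 and cryba1l2) and 1 reversed. The exception is crygn1, not called, for As2S2 against sf3b1 MO, whose log2 fold change of -0.13 became 0.0908 with each library centred on its median, because centring removes the shift of the median gene. Same-numbered libraries did not visibly deviate together (correlation -0.07 to 0.04 over 9 pairs). No pairing by number was thus seen, though this check cannot exclude one. The replicate block gave 33, 36 and 38 members called lower. Omitting the count filter is no separate check, since the filter removed no gene. FPKM rebuilt from counts, an alternative chosen after seeing the data, gave counts within the ranges above. Depth of the As2S2 libraries is unknown, so the precision of members under 10 FPKM there cannot be stated.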
